A study of Mus musculus with 8 samples.

Results

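Ribosome-bound RNA of mouse medial prefrontal cortex (mPFC) neurons was compared between cells labelled from 2 axon targets, given in the labels as NAC and VTA, the usual short names of the nucleus accumbens and the ventral tegmental area. The comparison rests on 4 pull-down arrays out of the 8 arrays of the series, 2 labelled VTA-projecting and 2 labelled NAC-projecting, and on every probe set that carries exactly 1 gene symbol. All mice carried a ribosome tag with green fluorescent protein (GFP) that Cre recombinase switches on. A canine adenovirus that delivers Cre (CAV2-Cre) was placed in NAC or in VTA, so all 4 groups had both the tag allele and the virus. The pull-downs were made with GFP-trap, a reagent that binds GFP. The other 4 arrays, 2 for each target, hold the unpurified mPFC input RNA and serve here as background. The labels give no strain, age, sex or tagged ribosomal protein, and there is no group without virus. The virus is taken up at axon terminals where it is injected, so a group is defined by the place of injection and not by one cell type. Whether the 2 arrays of each group stand for different mice is not in the labels, so the p-values cover just the spread among these samples, which may be technical.

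Cortical projection neurons fall into broad classes by where their axons go. Intratelencephalic neurons, found in most layers, send axons to other cortical areas and to the striatum, of which the nucleus accumbens is the ventral part. Pyramidal tract neurons sit in layer 5, leave the telencephalon and reach the midbrain, the pons and the spinal cord, and many of them send branches to the striatum on the way. The transcription factor Fezf2 and its partner Bcl11b (also called CTIP2) set up the pyramidal tract class during development.

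Between VTA and NAC pull-downs, 289 of 11712 tested genes differed, which is 2.47% (limma, Benjamini-Hochberg adjusted p under 0.05). Of these, 49 were higher in VTA pull-downs (0.418% of the genes tested) and 240 were higher in NAC pull-downs (2.05%). The NAC-high genes reached larger sizes: 73 of them differed at least 2-fold, against 1 VTA-high gene, Tcerg1l. With each array centred on its median the split was 85 higher in VTA and 201 higher in NAC, a share of 29.7% VTA-high genes in place of 17%. With no filter on dim genes, which tests 22180 genes, 113 passed, 13 higher in VTA and 100 higher in NAC. The deposited values are on the log2 scale, and differences below are VTA minus NAC on that scale, n = 2 arrays a group, each with its standard error (SE) from the limma model, so a positive value is higher in VTA.

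The unpurified inputs already differed by target. In them 176 genes passed (1.5%), 14 higher in VTA (0.12%) and 162 higher in NAC (1.38%). The pull-down and input comparisons share no arrays, but they may share mice, so they are not taken as independent. In both, the target cannot be told apart from the mice used or from a batch. Of the 240 NAC-high pull-down genes, 126 were also called higher in NAC inputs, which is 52.5% of the pull-down list and 77.8% of the input list. Of the 49 VTA-high genes, 3 were (6.12% of the pull-down list and 21.4% of the input list): Fcrls, Glra3 and Snora73a. No gene was called in opposite directions. Across the VTA-high genes the median difference was 0.65 in pull-downs and 0.15 in inputs, whereas across the NAC-high genes it was -0.71 and -0.58. A direct test of whether the pull-down difference departed from the input difference called 8 genes (0.0683% of those tested), 7 lower in VTA (0.0598%) and 1 higher (0.00854%). At an unadjusted limma p under 0.05, 38 of the 49 VTA-high and 87 of the 240 NAC-high genes departed in the direction of their pull-down difference. These genes were called on the pull-down difference, and that choice favours such a departure.

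**Figure D1:**
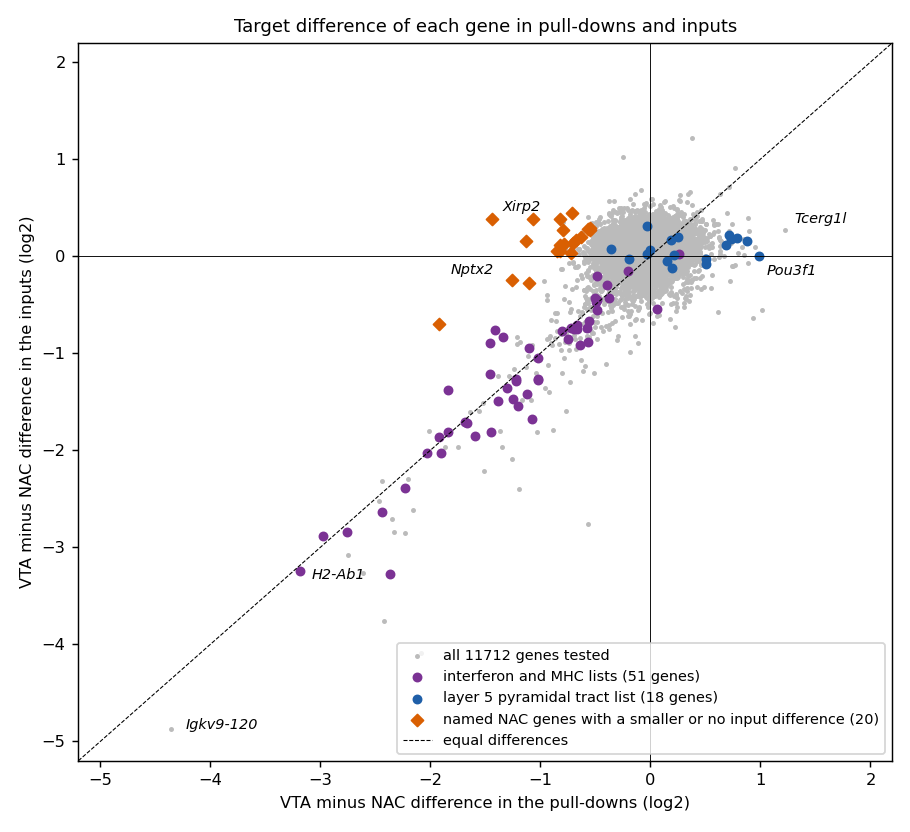
Each point is 1 of 11712 genes, with the VTA minus NAC difference in the pull-downs (x axis, log2) against that in the inputs (y axis, log2), and the dashed line marks equal differences. Interferon and MHC genes follow the dashed line far into the NAC side, pyramidal tract genes spread to the right near an input difference of 0, and named NAC genes such as Xirp2 lie to the left above the line.

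The 4 pull-down arrays separated by target. Principal component 1, with 57.9% of their variance, placed both NAC arrays on one side and both VTA arrays on the other. The correlation over 41345 probe sets was 0.988 between the NAC pull-downs and 0.981 between the VTA pull-downs, against 0.982 to 0.983 across targets, so the VTA pair was no more alike than arrays of different targets. Of the 16 glutamatergic marker genes written, 13 were tested, and their mean log2 level was 10.33 and 10.29 on the NAC pull-downs and 10.12 and 10.15 on the VTA pull-downs. Slc17a7, the main vesicular glutamate transporter of cortex, lay at 11.75 and 11.74 with NAC and at 11.51 and 11.54 with VTA (difference -0.22, SE 0.09, limma adjusted p = 0.244). Camk2a, a kinase gene of excitatory neurons, lay at 11.63 and 11.64 against 11.63 and 11.68. Emx1 and Neurod1 were below the filter. Rpl10a, whose protein often carries such tags, lay at 12.05 and 12.11 with NAC and at 11.94 and 11.95 with VTA (difference -0.14, adjusted p = 0.668). In the inputs it lay at 10.92 and 10.94 with NAC and at 9.87 and 10.35 with VTA (adjusted p = 0.0133).

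**Figure D2:**
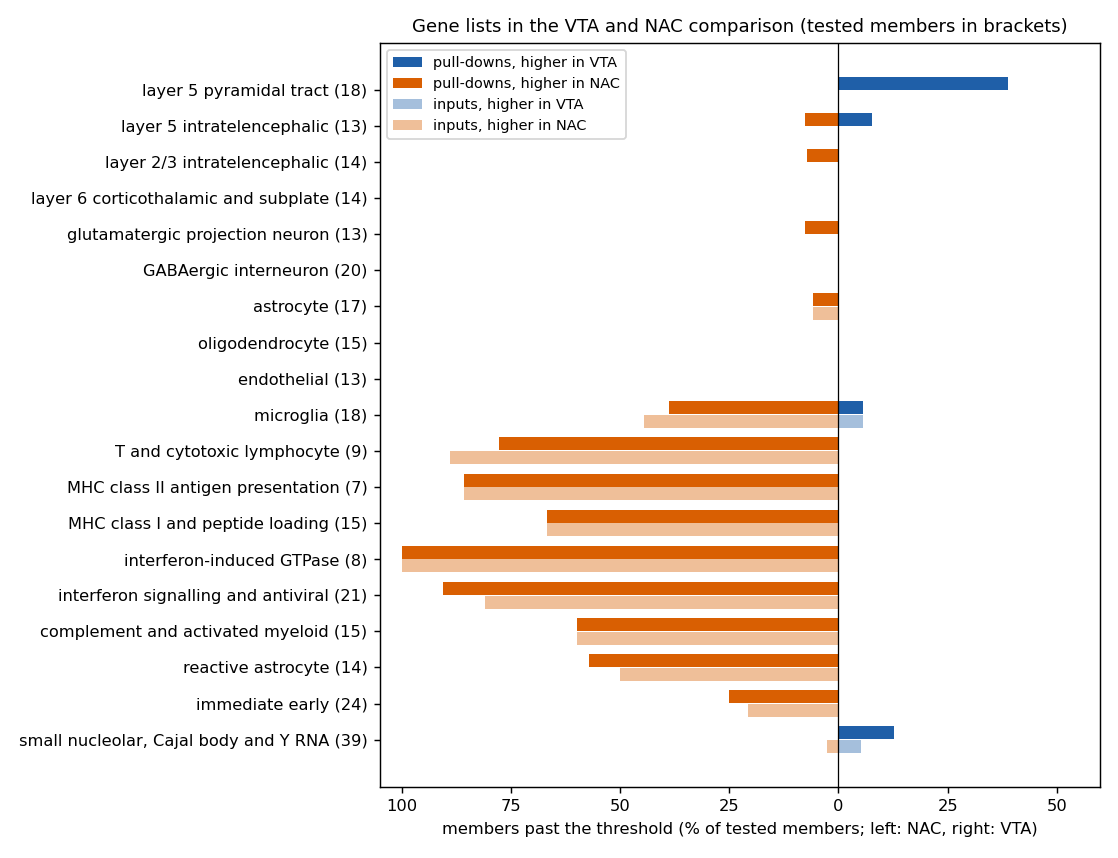
Bars give the percentage of a list's tested members (number in brackets) called higher in VTA (to the right) or higher in NAC (to the left), in pull-downs (dark) and inputs (pale). The pyramidal tract list reaches 38.9% on the VTA side with no input bar, and the interferon, MHC and lymphocyte lists lie on the NAC side in both kinds of sample. All lists were chosen with earlier results of these data known.

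Some genes of layer 5 pyramidal tract neurons were higher in cells labelled from VTA. Of the 18 tested members of this list, 7 passed as higher in VTA (38.9%, beside 0.418% of all genes), none as lower, and 11 missed the threshold. The list was chosen with earlier results of these data known, so this share is a description and not independent of the data. The median was 0.23, beside -0.04 over all genes. In the inputs none of the 18 passed in either direction and the median was 0.07. Fewer labelled cells of a type and less of its RNA per cell cannot be told apart in such bulk samples.

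Both class-defining transcription factors were among the 7. Fezf2 lay at 9.61 and 9.77 on the NAC pull-downs and at 10.16 and 10.24 on the VTA pull-downs, while its 4 inputs ran from 9.65 to 9.74. The VTA arrays were both above the NAC arrays, and the difference was 0.51 (SE 0.10, 95% interval 0.29 to 0.72, 1.42-fold, limma adjusted p = 0.0215). Bcl11b, the zinc finger factor that acts downstream of Fezf2 in corticospinal axon growth, lay at 8.27 and 8.10 with NAC and at 8.82 and 9.0 with VTA. Its groups did not overlap either, and it differed by 0.73 (SE 0.11, adjusted p = 0.00502). Pou3f1, a POU-domain factor also known as SCIP, had the largest difference of the list: 6.95 and 6.96 with NAC against 7.79 and 8.10 with VTA, or 0.99 (SE 0.12, 1.99-fold, adjusted p = 0.0014). Its 4 inputs lay between 6.98 and 7.14, near the NAC pull-downs. Bcl6, a transcriptional repressor, lay at 7.25 and 7.18 against 7.78 and 8.03.

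The other called members code for enzymes, receptors and membrane proteins. Chst8, a sulfotransferase that modifies glycoprotein sugars, lay at 7.87 and 7.91 with NAC and at 8.70 and 8.84 with VTA, a 1.84-fold difference (log2 0.88, SE 0.11, limma adjusted p = 0.00148). Npr3, the natriuretic peptide clearance receptor, lay at 6.87 and 6.6 against 7.52 on both VTA arrays (difference 0.79, adjusted p = 0.0033). Parm1 lay at 9.02 and 9.05 against 9.67 and 9.83 (difference 0.72, adjusted p = 0.00455). In each of these genes both VTA pull-downs were above both NAC pull-downs. Fezf2 was not called when the first NAC pull-down was left out (difference 0.43, adjusted p = 0.15), nor when the second VTA pull-down was (0.47, adjusted p = 0.0724), and no other of the 7 lost its call when 1 array was left out. Without the filter on dim genes 5 of the 7 passed, all but Fezf2 (adjusted p = 0.123) and Bcl6 (adjusted p = 0.0634). In a limma fit to the 4 pull-downs alone, Fezf2, Bcl11b (adjusted p = 0.0539) and Bcl6 (adjusted p = 0.0698) were not called.

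Members that missed the threshold did not all lean to VTA. Crym, a thyroid hormone binding protein gene, lay at 8.52 and 8.39 against 8.96 and 8.97 and missed it narrowly (difference 0.51, limma adjusted p = 0.053, and 0.0431 with each array centred). Ldb2 differed by 0.25, and the neurofilament gene Nefl was flat, at 10.72 and 10.65 against 10.66 and 10.69. Pcp4, a calmodulin regulator, lay the other way, at 12.73 and 12.59 with NAC and at 12.30 and 12.31 with VTA (difference -0.36, adjusted p = 0.162). For none of the 7 called genes did the departure of the pull-down from the input difference pass the adjusted threshold over all genes. That test gave Pou3f1 0.98 (adjusted p = 0.128), Chst8 0.72 (adjusted p = 0.22), Npr3 0.60 (adjusted p = 0.26), Bcl11b 0.55 (adjusted p = 0.272) and Fezf2 0.54 (adjusted p = 0.26). Before adjustment the limma p of these genes ran from 0.000165 (Pou3f1) to 0.00436 (Bcl11b).

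Markers of the other projection neuron classes gave few calls, but in lists this short 1 call already exceeds the share over all genes. That share was 0.418% higher in VTA and 2.05% higher in NAC. Of the layer 5 intratelencephalic genes 7.69% were called in each direction. Higher in NAC were 7.14% of the layer 2/3 genes and 7.69% of the general glutamatergic genes. Among 13 layer 5 intratelencephalic genes, 1 was higher in VTA, 1 was higher in NAC and 11 missed (median 0.04). The VTA-high one was Tcerg1l, a homologue of a transcription elongation regulator and the gene with the largest VTA excess on the arrays. It lay at 6.95 and 6.72 with NAC and at 8.01 and 8.11 with VTA, and its 4 inputs lay between 7.04 and 7.45. The difference was 1.22 (SE 0.11, 2.34-fold, limma adjusted p = 0.000211). The NAC-high one was Slc24a3, a sodium, potassium and calcium exchanger gene, at 9.58 and 9.42 against 8.80 and 9.08 (difference -0.56, adjusted p = 0.0291, lost in 7 of 8 fits that each left out 1 array, with adjusted p up to 0.168). Deptor, an mTOR inhibitor gene, lay at 8.77 and 8.62 against 7.68 and 8.31 and missed the threshold (adjusted p = 0.0668). Etv1, a layer 5 transcription factor gene, differed by 0.09 (adjusted p = 0.737).

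Of 14 layer 2/3 intratelencephalic genes only Dkkl1 passed, and it was higher in NAC. Cux2 and Rorb, transcription factor genes of upper and middle layers, differed by -0.06 each. None of 14 layer 6 genes passed, with Foxp2 at 0.21 and Tle4 at 0.20. Crym, described above at 0.51, also belongs to the layer 6 list. In the general glutamatergic list, 1 of 13 genes passed: Slc30a3, which codes for the zinc transporter of synaptic vesicles. It lay at 10.05 and 10.02 with NAC and at 9.47 and 9.44 with VTA, with all 4 inputs between 9.68 and 9.78 (difference -0.58, SE 0.09, limma adjusted p = 0.00747, and 0.0561 without the first NAC pull-down). Cck, the cholecystokinin gene, lay at 11.89 and 11.90 against 11.50 and 11.52 and missed the threshold (difference -0.39, adjusted p = 0.0613). The median of the glutamatergic list was -0.17.

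In most lists of cell types other than projection neurons, no marker passed the test between the pull-downs. Of all genes tested 2.47% were called, so a count of 0 in lists this short says little about these cell types. None of 20 GABAergic interneuron genes passed (median 0.15), nor did any of 9 striatal medium spiny neuron genes (0.05), 15 oligodendrocyte genes (-0.02), 10 oligodendrocyte precursor genes (0.12), 13 endothelial genes (0.14) or 15 mural and fibroblast genes (0.09). Gad2, a glutamate decarboxylase gene of inhibitory neurons, lay at 8.79 and 8.61 with NAC and at 8.54 and 8.90 with VTA, so its groups overlapped. Drd1, the D1 dopamine receptor gene, lay at 6.35 and 6.15 against 6.29 and 6.20. Mog of oligodendrocytes differed by 0.11. Cldn5 of endothelial cells lay at 6.45 and 6.47 against 6.76 and 6.71, groups that did not overlap, and missed the threshold (limma adjusted p = 0.385). Among 17 astrocyte genes 1 passed, Gfap, described below with its inputs. The part of other cell types in the VTA-high genes was not tested.

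Besides the pyramidal tract list, VTA-high genes fell thinly over receptor, adhesion and release genes. The counts below stand beside 0.418% of all genes higher in VTA and 2.05% higher in NAC. Igfbp4, which codes for a binding protein of insulin-like growth factors, lay at 8.45 on both NAC pull-downs and at 9.22 on both VTA pull-downs, with inputs from 8.62 to 8.83. It differed by 0.77 (SE 0.10, limma adjusted p = 0.00193) and was the 1 called member of 12 genes of that growth factor system. Robo1, a receptor for the Slit guidance proteins, lay at 8.83 and 8.69 with NAC and at 9.39 on both VTA arrays (difference 0.63, adjusted p = 0.00496). A limma fit to the 4 pull-downs alone did not call Robo1 (adjusted p = 0.0565). The other called gene of 43 axon guidance genes was Efna3, an ephrin gene, which was higher in NAC at 9.88 and 9.82 against 9.19 and 9.37 (difference -0.57, adjusted p = 0.0126). Igfbp4 and Robo1 kept their calls with each array left out in turn. For Efna3 the adjusted p was 0.0895 without the first NAC array and 0.0636 without the first VTA array.

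Cxcl12, a chemokine that also guides migrating neurons, was the 1 chemokine gene higher in VTA, at 8.17 and 8.04 with NAC and 8.59 and 8.88 with VTA (difference 0.63, limma adjusted p = 0.0149). Leaving out the second NAC pull-down (adjusted p = 0.0954) ended its call, as did leaving out the second VTA pull-down (adjusted p = 0.058). Adcyap1, which codes for the peptide PACAP, was the 1 call among 25 neuropeptide and granin genes, at 7.27 and 6.92 against 7.69 and 7.90 (difference 0.70, adjusted p = 0.018, and 0.102 without the second NAC pull-down and 0.0746 without the second VTA pull-down). Among 27 cadherins and protocadherins, the adhesion genes Cdh22 (0.56) and Pcdh8 (0.49) were higher in VTA and Cdh12 (-0.50) was higher in NAC. These adhesion calls were lost in 3, 6 and 6 of the 8 fits that left out 1 array, with adjusted p up to 0.148, 0.159 and 0.174.

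Calls in the remaining neuronal lists were isolated. With 2.47% of all genes called in either direction, counts of 0 or 1 in such lists say little about them. The calcium sensor gene Doc2b (0.88) and the vesicle priming gene Cadps2 (0.56) were the 2 called of 33 release genes. Cacna1h, a low-voltage-activated calcium channel gene, was the 1 called of 24 sodium and calcium channel genes (0.52), and the mineralocorticoid receptor gene Nr3c2 the 1 called of 11 opioid, cannabinoid and stress hormone receptor genes (0.42). The limma adjusted p lay at 0.0415 for Doc2b, 0.0307 for Cadps2, 0.0383 for Cacna1h and 0.0404 for Nr3c2, and the calls were lost in 7, 6, 8 and 8 of the 8 fits with 1 array left out, with adjusted p up to 0.103, 0.147, 0.169 and 0.183. None of 22 monoamine and acetylcholine receptor genes, 21 glutamate receptor genes, 11 GABA receptor genes or 15 RGS genes passed, and 1 of 36 potassium and HCN channel genes did: Kcnab1, a channel subunit gene, which was higher in NAC (-0.41) and was not called with each array centred (adjusted p up to 0.228 with 1 array left out).

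Some small noncoding RNAs of the nucleus and cytoplasm were also called higher in VTA, but not without the filter on dim genes. Of 80 small nucleolar, Cajal body and Y RNA genes on the array 39 were tested. Of these 5 were higher in VTA (12.8%, beside 0.418% of all genes), none was lower and 34 missed. The median was 0.23, beside 0.07 for the same genes in the inputs, where 2 were higher and 1 lower. Rny1 and Rny3 code for Y RNAs, which bind the Ro60 protein. Rny1 lay at 9.83 and 10.13 with NAC and at 10.90 and 10.82 with VTA (difference 0.88, limma adjusted p = 0.0152), below its 4 inputs of 11.16 to 11.67. Rny3 lay at 6.70 and 6.72 against 7.35 and 7.96 (0.95, adjusted p = 0.0356), and its inputs lay between 8.47 and 8.99. Snora34, a guide RNA for pseudouridine, lay at 6.49 and 6.37 against 7.21 and 7.35 (0.85, adjusted p = 0.00797), with inputs from 7.61 to 8.04. In each of these 3 RNAs all inputs were above all pull-downs, and the VTA pull-downs were nearer to them. Snora23, also called, did not share this order. It lay at 7.16 and 7.11 against 7.86 and 8.08 (0.83, adjusted p = 0.0434), with inputs from 7.42 to 7.99. Its second VTA pull-down was thus above all its inputs. With quantile normalization Snora23 was not called (limma adjusted p = 0.0534). Rny1 was not called without the first NAC array (adjusted p = 0.103) or without the first VTA array (adjusted p = 0.0702). Rny3 lost its call in 5 of the 8 fits with 1 array left out (adjusted p up to 0.122), and the list had 2 calls whichever of the 4 pull-downs was dropped and 3 without either NAC input. Without the filter on dim genes, 80 members were tested and none passed. Snora73a was called in the inputs too.

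The NAC side was led by immune genes, and these were also higher with NAC in the unpurified tissue. The 15 genes with the largest NAC excess included antigen-presenting MHC class II genes, interferon-induced GTPases, chemokines, immunoglobulin segments and complement. H2-Ab1, a class II beta chain, lay at 9.77 and 9.67 on the NAC pull-downs and at 6.64 and 6.43 on the VTA pull-downs. In the inputs it lay at 10.40 and 10.19 with NAC and at 7.01 and 7.07 with VTA. Both target groups were far apart in both kinds of RNA, by -3.18 in pull-downs (SE 0.11, 9.08-fold, limma adjusted p = 6.58e-07) and by -3.25 in inputs (adjusted p = 5.36e-07). Of these 15 genes, all but H2-Aa and Cxcl10 had a larger difference in the inputs than in the pull-downs. For Iigp1 it was -2.37 in pull-downs and -3.27 in inputs. None of the 15 was called in the test of the pull-down against the input difference. Pull-downs that did not overlap between targets were a condition of choosing the 15, whereas the inputs were not used for it. All 15 were also called higher in NAC inputs. For most of them the VTA level lay under the array median, so that the size of the difference is not exact there.

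Interferon-induced GTPases act on vacuoles that hold microbes. Of 13 on the array 8 were bright enough to be tested, some of them only through the NAC arrays, and these 8 were called higher in NAC in pull-downs and in inputs. Without the filter 9 of the 13 were called in the pull-downs, with a median of -1.54. Igtp lay at 8.74 and 8.40 with NAC and 5.76 and 5.87 with VTA, and in inputs at 8.94 and 9.0 against 6.27 and 5.98. Gbp10 differed by -2.44 and Gbp3 by -1.84. Of 21 interferon signalling and antiviral genes, 19 were higher in NAC pull-downs and 17 in NAC inputs (medians -1.12 and -0.91). Isg15, a ubiquitin-like modifier, lay at 7.40 and 7.55 against 5.52 and 5.75 (difference -1.84, limma adjusted p = 0.000103), and Ifit1, which binds viral RNA, at 7.58 and 7.38 against 5.64 and 5.52. The transcription factor Irf7 differed by -1.22. With 1 array left out, 7 to 8 of the GTPases and 13 to 19 of the signalling genes were called, the fewest without the first NAC pull-down, and 12 of 23 signalling genes were called without the filter. In Igtp, Gbp3, Isg15, Ifit1 and Irf7 the VTA level was under the median of at least 1 array, so these sizes are not exact.

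Of 7 MHC class II genes 6 were higher in NAC in pull-downs and 6 in inputs, and of 15 class I and peptide loading genes 10 and 10. Without the filter the pull-down calls were 5 of 10 and 6 of 16. B2m, the light chain of class I molecules, lay at 12.45 and 12.27 with NAC and at 11.33 and 11.34 with VTA (difference -1.02, limma adjusted p = 0.00199), with an input difference of -1.05. H2-K1 differed by -1.60, the peptide transporter gene Tap1 by -1.31 and the immunoproteasome gene Psmb8 by -1.25. Over the 51 distinct tested genes of these 4 interferon and MHC lists, 43 were higher in NAC pull-downs and 41 in NAC inputs. None was called in the test of the pull-down against the input difference. The H2, Gbp, Ifit and immunoglobulin families hold near-identical members that share probes, so single members are uncertain.

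**Figure D3:**
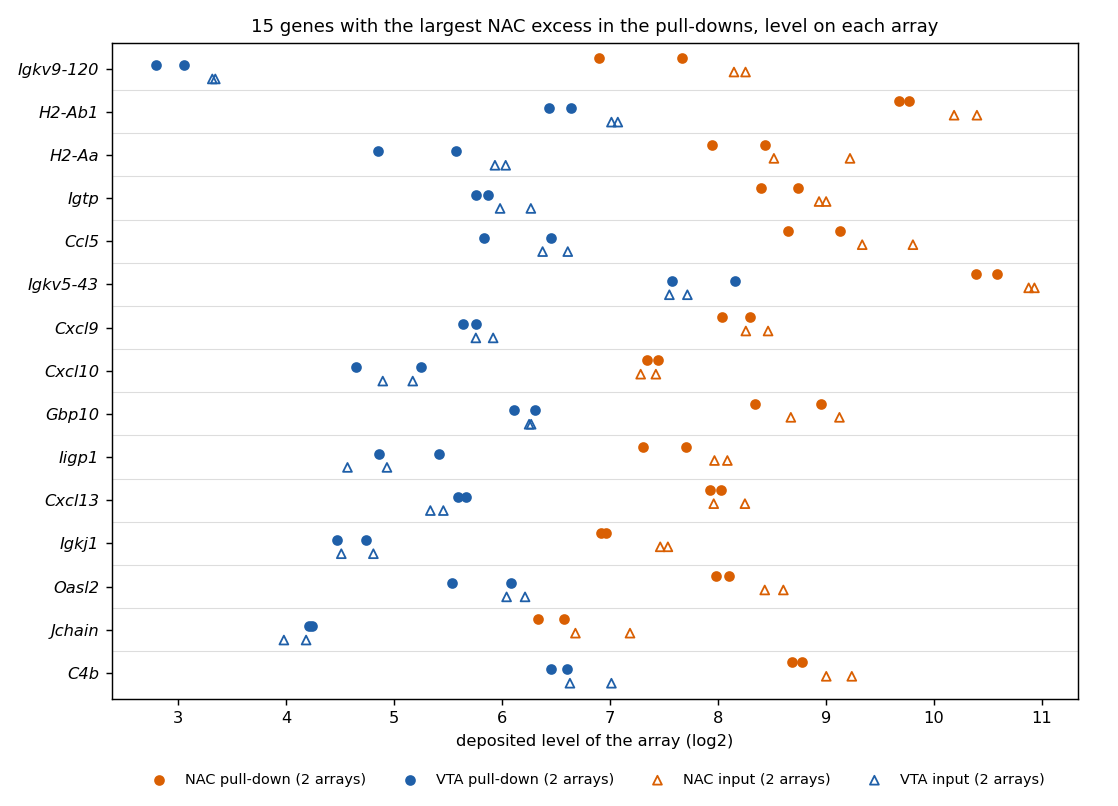
Level (log2, x axis) on every array of the 15 genes with the largest NAC excess in the pull-downs, with pull-downs as filled circles, inputs as open triangles, NAC in orange and VTA in blue. In every gene the orange symbols lie to the right of the blue ones, in H2-Ab1 at 9.67 to 10.40 against 6.43 to 7.07. For the circles this was a condition of choosing the genes.

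The promoters of these genes held a known interferon motif more often than other promoters. The interferon-stimulated response element, to which the STAT and IRF factors bind, was searched on both strands as GAAA, any 2 bases and GAAA again, in RefSeq windows of 300 bases (250 before to 50 after each gene start, GRCm38.p6). It was present in 14 of 26 windows of the 21 matched genes of the 29 in the interferon lists (53.8%). Of all 32851 windows 3.44% held it, and of the windows of genes tested 2.89%. Among windows of NAC-high genes it was in 27 of 220 (12.3%), which were 21 of 102 (20.6%) for genes also called in inputs and 6 of 118 (5.08%) for the others. Among VTA-high genes it was in 1 of 36 (2.78%), and among pyramidal tract genes in 0 of 14. The TATA box (TATAAA), the E box (CACGTG) and the CRE (TGACGTCA) were searched too. In windows of NAC-high genes also called in inputs, the TATA box was in 20.6%, against 7.14% for genes tested. The E box was in 1.96% of them against 9.83%, and the CRE in 0.98% against 2.95%. Stretches of 5 NAC-high genes are shown as examples of the motif in its place, chosen after their values were seen; capitals mark the matches, which may overlap, and all read in the direction of the gene.

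Isg15: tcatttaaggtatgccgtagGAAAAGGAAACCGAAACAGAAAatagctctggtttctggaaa
Ifit1: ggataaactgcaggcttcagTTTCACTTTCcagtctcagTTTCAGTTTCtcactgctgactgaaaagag
Gbp3: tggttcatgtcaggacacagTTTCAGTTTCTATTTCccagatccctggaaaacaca
Igtp: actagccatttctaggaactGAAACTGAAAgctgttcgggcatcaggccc
Irgm2: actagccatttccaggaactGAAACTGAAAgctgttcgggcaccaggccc

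They lie at chr4:156200855-156200916 on the minus strand (Isg15), and on the plus strand at chr19:34640765-34640833 (Ifit1), chr3:142559979-142560034 (Gbp3), chr11:58199502-58199551 (Igtp) and chr11:58214893-58214942 (Irgm2). Isg15 and Gbp3 hold overlapping copies and Ifit1 holds 2 separate ones. Igtp and Irgm2, members of one GTPase family, carry the motif with the same letters inside. Irgm2 lay at 7.49 and 7.0 with NAC and at 4.95 and 5.47 with VTA (limma adjusted p = 0.000665), with the VTA levels under the array medians, so that no exact size is given. The match is a description of the letters and not a tested binding site.

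Chemokine, complement and glial reaction genes went the same way. Cxcl9, Cxcl10, Cxcl13 and Ccl5, which attract lymphocytes, differed by -2.47, -2.44, -2.35 and -2.75 in pull-downs and by -2.52, -2.32, -2.71 and -3.08 in inputs. In these 4 genes the VTA pull-down level was under the median of at least 1 array, so these sizes are not exact. Of 19 chemokines on the array 11 were tested, and 5 of these were higher in NAC in both. Over all genes tested, 2.05% were higher in NAC pull-downs and 1.38% in NAC inputs. C4b, a complement component, lay at 8.68 and 8.78 with NAC and at 6.46 and 6.6 with VTA (difference -2.20, SE 0.14, limma adjusted p = 2.01e-05). Of 20 complement and activated myeloid genes on the array 15 were tested, and 9 were higher in NAC pull-downs and 9 in NAC inputs. Of 18 reactive astrocyte genes on the array 14 were tested, and 8 and 7 were higher in NAC. Gfap, the filament protein of astrocytes, lay at 9.36 and 9.29 against 8.20 and 8.01 in pull-downs (-1.22, adjusted p = 0.000107) and at 9.65 and 9.50 against 8.74 on both VTA inputs (-0.84). The serpin Serpina3n differed by -1.04 and by -1.21 in inputs. The reactive list shares Cxcl10, Iigp1, C4b and Psmb8 with the lists above.

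Lymphocyte and microglial markers moved with these genes. Of 16 T cell and cytotoxic lymphocyte markers on the array 9 were tested, some of them bright enough on the NAC arrays only, and 7 of these were higher in NAC pull-downs and 8 in NAC inputs. Without the filter 3 of the 16 were called in the pull-downs. The count of 7 became 3 without the first NAC pull-down or either VTA input. The mean log2 level of the tested members was 6.71 and 6.55 on the NAC pull-downs and 5.58 and 5.59 on the VTA pull-downs, and it was 7.08 and 6.93 against 5.67 and 5.59 on the inputs. Cd3g, a chain of the T cell receptor complex, lay at 6.55 and 6.13 against 4.06 and 4.59, and Cd52 of lymphocytes at 7.23 and 7.17 against 5.69 and 5.98. The defining markers Cd3d and Cd8a were below the filter. Cd3d lay the other way in the pull-downs, at 4.60 and 5.01 with NAC and 5.11 and 5.12 with VTA, and so did Cd2, at 4.64 and 5.03 against 5.29 and 5.20. Of 9 B and plasma cell genes on the array 4 were tested, and Jchain (-2.23) and Ighm (-0.63) were higher in NAC. Jchain lay under the array medians with VTA, at 4.24 and 4.21, so its size is not exact. Of 4 further Ighm probe sets 3 passed at larger size (-2.89, -2.81 and -1.47) and 1 missed (-0.94, limma adjusted p = 0.0552). Below the filter, the pull-downs overlapped between targets in Cd79b and Mzb1. In Cd79a, Ms4a1 and Pou2af1, also below it, both NAC pull-downs were above both VTA pull-downs. Of 18 microglia genes 7 were higher in NAC and 1, Fcrls, was higher in VTA, against 8 and 1 in inputs. The NAC-high count here was 4 without the second NAC pull-down, and without the filter 3 of 19 were higher in NAC and none in VTA. The complement gene C1qa lay at 8.43 on both NAC arrays against 7.66 and 7.54, and Ly86 at 9.02 and 8.91 against 8.04 and 8.16. The microglial identity gene Cx3cr1 differed by -0.17 (limma adjusted p = 0.415) and Csf1r by -0.24 (adjusted p = 0.216), and neither passed. How much such cells contribute to the pull-down differences was not tested.

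Some immediate early genes, which neurons switch on within minutes of firing, were also higher in NAC in both kinds of RNA. Of 24 members 6 passed in the pull-downs (25%, beside 2.05% of all genes) and 5 in the inputs, none in the other direction. Npas4 lay at 8.30 and 8.26 with NAC and at 6.67 and 7.12 with VTA (difference -1.38, SE 0.14, limma adjusted p = 0.000354), and in inputs at 8.63 and 8.78 against 7.51 and 7.45. Arc, a regulator of synaptic strength, lay at 9.38 and 9.61 against 8.58 on both VTA arrays (-0.92, adjusted p = 0.00117), with -0.85 in inputs. Fos lay at 6.97 and 6.98 against 5.79 and 6.01 (-1.07, adjusted p = 0.00941), with -0.92 in inputs. Klf10 (-0.67), Egr1 (-0.54) and Junb (-0.49) completed the 6, and Jund (0.19), Egr3 (-0.08) and Nr4a1 (-0.27) were among the 18 that missed. Npas4 and Arc kept their calls with each array left out in turn. Fos lost its call without the first VTA pull-down (adjusted p = 0.0562), Klf10, Egr1 and Junb in 2, 3 and 7 of these 8 fits (adjusted p up to 0.0754, 0.0926 and 0.178), and Junb also with each array centred. Dropping the first VTA pull-down left 2 calls in the list, dropping the second NAC pull-down 3 and dropping the first 4. Without the filter Npas4 and Arc were the 2 called.

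A further 114 NAC-high genes were not called in the inputs, and among them were neuronal genes. The genes named next were chosen after their values were seen, as the 20 with the largest departure of the pull-down from the input difference among 83 NAC-high genes with non-overlapping pull-downs, NAC levels above the array medians and an unadjusted p under 0.05 for that departure. Xirp2, which codes for an actin-binding protein of muscle, lay at 8.51 and 8.41 on the NAC pull-downs and at 7.08 and 6.96 on the VTA pull-downs. Its inputs ran the other way, at 7.25 and 7.34 with NAC and at 7.72 and 7.63 with VTA, so the NAC pull-downs alone were above all the other arrays. The pull-down difference was -1.44 (SE 0.10, 95% interval -1.66 to -1.23, 2.72-fold, limma adjusted p = 3.09e-05), and its departure from the input difference was -1.83 (adjusted p = 0.00116). Nptx2, a neuronal pentraxin that gathers AMPA receptors at synapses and is made on activity, lay at 9.13 and 9.11 against 7.85 and 7.87, with inputs between 8.39 and 8.73. It differed by -1.26 (adjusted p = 4.03e-05), and the departure was -1.02 (adjusted p = 0.0323).

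Dkkl1, a secreted protein gene of upper-layer neurons, lay at 9.15 and 9.02 with NAC and at 8.40 and 8.35 with VTA, and its inputs lay at 8.23 and 8.07 against 8.58 and 8.6. Its difference was -0.71 (SE 0.10, limma adjusted p = 0.00395) in pull-downs and 0.44 in inputs. Dynlrb2, a dynein light chain gene, lay at 6.63 and 6.31 against 5.30 and 5.50 (difference -1.07, adjusted p = 0.000964), with the VTA level under the array median. Nrn1, the neuritin gene, lay at 11.67 and 11.50 against 10.85 and 10.88, with inputs between 11.18 and 11.32 (-0.73, adjusted p = 0.00361). Cnih3, an auxiliary protein gene of AMPA receptors, lay at 10.53 and 10.50 against 9.89 ± 0.16 (SD, n = 2), with inputs between 10.40 and 10.65 (-0.63, adjusted p = 0.00935, and 0.0628 without the first NAC pull-down). In Nrn1 and Cnih3 the departure from the input difference did not pass over all genes (adjusted p = 0.168 and 0.131).

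Immune-type genes stood in this set too. Casp1, the inflammasome protease gene, lay at 6.98 and 6.59 with NAC and at 4.30 and 5.42 with VTA, and at 6.17 and 6.20 against 5.55 and 5.42 in inputs (limma adjusted p = 0.00501), with VTA levels under the array medians, so that the size is not exact. Blnk, a B cell adaptor gene, lay at 8.32 and 8.30 against 7.16 and 7.26 (-1.10, adjusted p = 0.000102), with -0.28 in inputs. Ptgfrn, a membrane protein gene, differed by -0.85, the transglutaminase gene Tgm3 by -0.55, and Sccpdh by -0.83, all with input differences between 0.05 and 0.27. The others of the 20 were F2rl2, Gm10139, 2610507I01Rik, 1700007K13Rik, Gm20939, Coq5, Cd7, Slc24a3 and Lrrc3b, with pull-down differences between -1.13 and -0.55. With 1 array left out, Sccpdh was no longer called once the first NAC pull-down was dropped (adjusted p = 0.0533) and Tgm3 in 7 of 8 fits (adjusted p up to 0.148), and of these 9 others 7 lost theirs in 1 to 7 fits (adjusted p up to 0.207), all but Gm10139 and 1700007K13Rik. Among 11 sarcomere-type genes, Xirp2 and Tnnt2 (-0.45, adjusted p = 0.0427, lost in 8 of 8 such fits, up to 0.217) were higher in NAC pull-downs, while the inputs had 2 genes higher in VTA, Tnnc1 (1.02) and Actn2 (0.58).

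**Figure D4:**
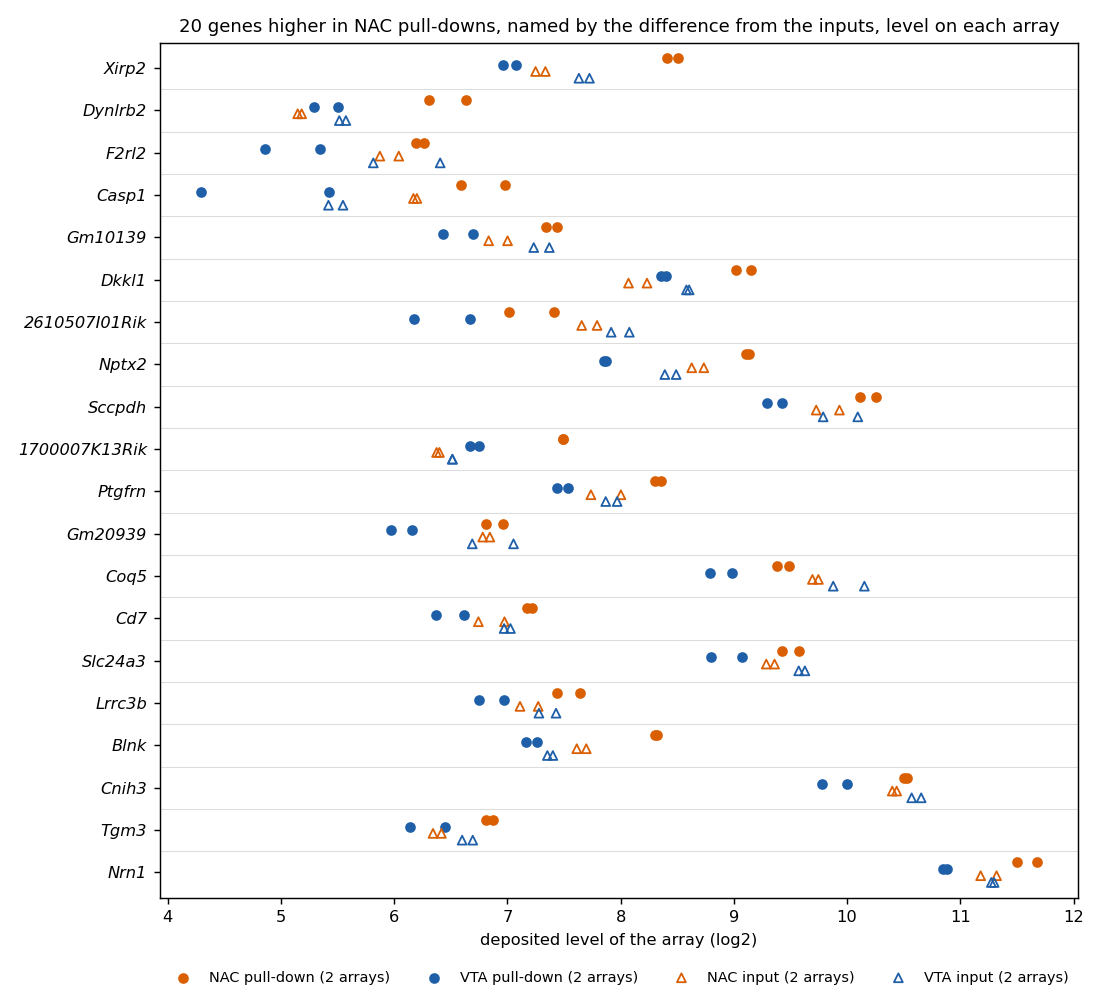
Level (log2, x axis) on every array of the 20 genes chosen for the departure of their NAC excess from the inputs, with pull-downs as filled circles, inputs as open triangles, NAC in orange and VTA in blue. In each gene the NAC pull-downs lie above the VTA pull-downs, which was a condition of the choice. In several genes they also lie above all inputs, among them Xirp2 (8.41 and 8.51), Nptx2 (9.11 and 9.13) and Dkkl1 (9.02 and 9.15). In others they do not, and in Coq5 (9.38 and 9.49) they lie below all inputs.

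Housekeeping groups gave no calls between the pull-downs. With 2.47% of all genes called, a count of 0 in lists of this size says little about these groups. None of 43 cytosolic ribosomal protein genes passed (median -0.02), nor any of 62 nuclear-encoded respiratory chain genes (-0.07), 63 mitochondrial ribosomal protein genes (-0.04), 10 mitochondrially encoded genes (0.03) or 22 heat shock and unfolded protein genes (-0.03). Each test rests on 2 arrays a group, with the spread pooled over all 8 arrays, and a fit to the 4 pull-downs alone called 119 genes, 16 higher in VTA and 103 higher in NAC. The count also fell to 151 without the first NAC pull-down, with 29 higher in VTA and 122 higher in NAC.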

How the data were processed

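Per the labels, mPFC tissue was dissected after CAV2-Cre injection, Trizol and a Qiagen kit served for the RNA, and biotinylated cRNA was hybridised to Affymetrix arrays. The deposited values are log2 levels, 1 for each probe set on each array, made by the authors with Transcriptome Analysis Console per the submitters' processing notes. Which settings it ran with is not stated in those notes, and a scale shared between arrays assumes like total RNA. Values were used as deposited. Gene symbols came from GEO's platform annotation: 23521 of 41345 had 1 symbol, 1814 several and 16010 none. Each of 22180 genes kept its brightest probe set (by mean) and was tested where at least 2 of 8 arrays exceeded that array's median over named genes. The model had 4 group means over all 8 arrays and was fitted with limma 3.58.1 (lmFit, eBayes) in R 4.3.3, two-sided, with Benjamini-Hochberg adjustment over 11712 genes and a threshold of 0.05. The fit was tested on simulated data. The number of arrays limits the precision. The members and the 48 gene lists were chosen with earlier results of these data known. Named genes were drawn from the 15 largest differences in each direction with non-overlapping pull-downs, up to 5 called and 3 uncalled members of each list, a set of standard markers, and an added set of 20 chosen on the data. Not every gene of these sets is described. Among the 15 VTA-high genes Trmt9b, Gm19410 and B230208B08Rik are not. Bcl6, Deptor, Irf7, B2m, Gbp3, Serpina3n, Junb, Actn2 and Glra3 fall outside these sets and were named after their values were seen. So do the markers named as below the filter. Promoter windows came from RefSeq (GRCm38.p6), with 9294 of 11712 genes matched. Alternatives covered scaling, filters, probe set choice, variance trend, replicate blocks, the arrays fitted and each array left out.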

Additional observations from a re-analysis of the deposited data

Results flagged for a closer look

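For 8 genes the VTA minus NAC difference itself differed between pull-downs and inputs (limma interaction term, Benjamini-Hochberg adjusted p under 0.05). Values are the pull-down difference less the input difference on the log2 scale. They were -1.83 for Xirp2 (adjusted p = 0.00116), -1.45 for Dynlrb2 (adjusted p = 0.0251), -1.27 for Tnnc1 (adjusted p = 0.0251), -1.21 for Gm10139 (adjusted p = 0.0394), -1.15 for Dkkl1 (adjusted p = 0.0251), -1.02 for Nptx2 (adjusted p = 0.0323) and -0.91 for 1700007K13Rik (adjusted p = 0.0394). Ighg3, an immunoglobulin heavy chain gene, had 2.19 (adjusted p = 0.0323). Its NAC inputs lay at 6.02 and 6.14, and the VTA inputs at 3.21 and 3.45. Its NAC pull-downs lay at 4.55 and 5.08 and its VTA pull-downs at 4.53 and 3.96, all under the array medians, so this size is not exact. For Tnnc1, the cardiac and slow muscle troponin C gene, the pull-downs did not pass the test (7.70 and 7.56 with NAC, 7.28 and 7.49 with VTA, difference -0.25, limma adjusted p = 0.283), and the inputs were higher in VTA by 1.02. With each array left out in turn, Xirp2 was called in 8 of 8 fits (adjusted p up to 0.0322), Dynlrb2 in 3, Tnnc1 and Ighg3 in 2 each, Dkkl1 in 1, and Gm10139, Nptx2 and 1700007K13Rik in 0.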

How the results depend on the processing

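Counts are genes called between the pull-downs (289, with 49 higher in VTA and 240 lower), between the inputs (176) and for the difference of enrichment (8). Centring each array gave 85 higher in VTA pull-downs, and quantile normalization 90, with 2 for enrichment. Without the filter on dim genes there were 113, 13 and 100, and 1 for enrichment. Every probe set as a feature gave 5 for enrichment. A variance trend gave 532, 113 and 419, and 30 for enrichment. The 4 pull-downs alone gave 119, 16 and 103. With 1 array left out (a lone array being assumed to vary like the other groups), pull-down calls ran from 151 to 335, higher from 29 to 45, lower from 122 to 291, input calls from 100 to 206 and enrichment calls from 1 to 8. The lowest pull-down counts came without the first NAC pull-down, 29 higher also without the second, and 31 without either NAC input. Input calls were 109 once the second NAC input was dropped, and 102 or 100 once the first or second VTA input was. Enrichment calls were 4 and 5 without the first and second NAC pull-down, 1 without the first VTA pull-down, or with any of the inputs left out but the second VTA input, which gave 2. Replicate numbers were not taken to pair the samples: deviations of same-numbered arrays correlated at -0.134 between the pull-downs, 0.299 and 0.182 between NAC pull-downs and the NAC and VTA inputs, 0.221 between the inputs, and -0.0716 and -0.0218 between VTA pull-downs and the NAC and VTA inputs. The fixed replicate block gave 301 pull-down calls and 1 for enrichment, the random replicate block 289, and a crossed replicate block, added after seeing the data, 442 with 87 higher, and 13 for enrichment. Of the 137 report genes called between pull-downs, 68 stayed past the threshold under every one of the 18 alternatives that could be fitted for them, and none changed sign. The causes of these shifts were not tested.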

Other observations

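Probe sets with no symbol or several were compared in the same way. Of 17824 such probe sets 4646 passed the filter, and 10 were higher in VTA pull-downs and 53 lower (1.36% called), against 74 called between the inputs.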
